A study of Homo sapiens with 18 samples.

Results

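RNA polymerase I makes the large ribosomal RNA precursor in the nucleolus. MAX binding was examined at 10 genes of this enzyme and its factors: the subunit genes POLR1A, POLR1B, POLR1C, POLR1D, POLR1E, POLR1F, POLR1G and POLR1H, the initiation factor gene RRN3 and the upstream binding factor gene UBTF. They were picked by symbol and function and not by a measured value, though with earlier results of these data known. All 10 were found among 19974 protein-coding genes on chromosomes 1 to 22 and X of the RefSeq gene table. Its build was GRCh38.p14, with the same positions as hg38. A MAX peak was assigned to a gene when its summit lay inside the gene or within 2500 bp of either outer end. Of the 10 genes, 8 had a peak in every list and 2 had none in any list.

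The study used U2OS cells, a human osteosarcoma line, in which the cells' own MYC was knocked out. They carried a Tet-On transgene of MYC, either one of the mutants named 3A and 7A in the labels or the wild-type form (WT). Cells received doxycycline (Dox) at 1 µg/ml or PBS over 24 h, with NIH3T3 mouse cells added to 10% for an outside reference genome. Per the labels there were 12 MAX libraries, in 6 groups of 2 replicates, and 6 inputs, and neither the number of clones per line nor the changed residues of 3A and 7A are given in the sources used here. The antibody field of the labels names MAX, and the protocol text of the same samples names an anti-FLAG antibody. The data are 3 peak lists, 1 per MYC form (3A, 27294 peaks; 7A, 25159 peaks; WT, 34622 peaks). Each list carries both the Dox and the no Dox sign in its peak names, so no comparison of Dox with no Dox was made. There was 1 list per MYC form and no replicate list, so every difference between lists below is a description with no test, and the sequencing depth behind it is unknown.

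MYC and MAX bind DNA as a pair, most tightly at the E-box CACGTG, and MYC is known for raising ribosome production in growing cells. RNA polymerase I has a catalytic core, a pair of assembly subunits shared with RNA polymerase III, a stalk and a heterodimer that acts in initiation and elongation. RRN3 ties the polymerase to its promoter, and UBTF, an HMG-box protein, bends and keeps open the ribosomal DNA repeats. The peaks described here lie at the genes that encode these proteins and not on the ribosomal DNA itself.

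The 8 genes with peaks were POLR1A, POLR1B, POLR1C, POLR1D, POLR1E, POLR1F, POLR1G and UBTF, and the same genes had one in the 3A, the 7A and the WT list. Of all protein-coding genes, 67.7% had a peak by this rule in the 3A list, 66.7% in the 7A list, 70.8% in the WT list and 65.7% in all 3, so that 8 of 10 is near what most genes show. The fold enrichment in the lists is the authors' own ratio of coverage to background at the summit, and peaks were ranked by it within each list. Fold enrichments of different lists are printed side by side as the authors' values, and their scale may differ between lists, so differences are read from the ranks. The place of a peak is given below as the percent of its list ranked at or above it, so a small percent is a strong peak. The strongest peak of the gene was in the top 10% of the list for 3 of the 10 genes in 3A (POLR1B, POLR1E and POLR1G), 1 in 7A (POLR1G) and 8 in WT. Among all protein-coding genes the same was true of 13.5% in 3A, 12.0% in 7A and 16.4% in WT. The counts depend on what is ranked. With lists of equal length they were 3 in 3A, 1 in 7A and 4 in WT (POLR1B, POLR1E, POLR1G and UBTF). The share of all protein-coding genes was then 12.5% in 3A, 12% in 7A and 12.3% in WT. Among peaks near gene ends the counts were 1, 1 and 2, beside 7.52%, 7.21% and 8.1% of all protein-coding genes.

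The catalytic core came with single peaks that covered the gene start, with summits some way from it. POLR1A encodes the largest subunit, which forms the active site together with POLR1B. Its peak had a fold enrichment of 21.2 in the 3A list, 19.2 in the 7A list and 33.9 in the WT list, at places 15.9%, 20.0% and 7.81% of these lists. The summits lay 335, 321 and 331 bp upstream of the annotated start of POLR1A (hg38, chromosome 2, 86105886, minus strand), and the WT peak ran from 86105341 to 86106709. PTCD3, a mitochondrial translation gene read in the opposite direction, starts at 86106235, and these summits lie inside its promoter window, so that the peak belongs to both genes by position. At POLR1B the fold enrichments were 31.0 in 3A, 23.3 in 7A and 36.9 in WT, at places 6.59%, 13.3% and 6.47%. This was the smallest gap between 3A and WT among the 8 genes by rank of fold enrichment over whole lists. The POLR1B summits lay inside the gene, 614 bp past its first annotated start in 3A, 621 bp in 7A and 631 bp in WT (WT peak on chromosome 2, 112541754 to 112543036). From its second annotated start (112542465) they lay 185 bp in 3A, 192 bp in 7A and 202 bp in WT. TTL and LOC105373562 also have an outer end within 2500 bp of the POLR1B summits.

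The assembly subunits POLR1C and POLR1D, which RNA polymerase III also uses, held the largest gaps between a mutant list and WT by rank of fold enrichment over whole lists. POLR1C had fold enrichments of 14.6 in 3A and 12.5 in 7A against 32.3 in WT, and its places were 32.2%, 42.3% and 8.58%. In both mutant lists this placed POLR1C below the median gene with a peak, which stood at 29.0% in 3A and 31.5% in 7A (25.3% in WT). By −log10 q in place of fold enrichment POLR1C stood at 17.7% in 3A, 26.4% in 7A and 4.27% in WT, above the median gene in each. Its summits lay 58 bp upstream of the start in 3A, 35 bp in 7A and 2 bp in WT, between POLR1C and the divergent gene YIPF3 (WT peak on chromosome 6, 43516723 to 43517715). POLR1D had 11.5 in 3A, 21.2 in 7A and 30.2 in WT, at places 47.2%, 16.3% and 9.94%. The peak at POLR1D covered the same stretch in the 3 lists, but its summit did not. It stood 52 bp past the first start in 3A, against 982 bp in 7A and 981 bp in WT, upstream of the second annotated start (27621892). The 3A fold enrichment of POLR1D is therefore that of another point of the same peak (WT peak on chromosome 13, 27619866 to 27622430). LNX2 also has an outer end within 2500 bp of the POLR1D summits in every list.

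The stalk subunit gene POLR1F, whose product meets RRN3, had the narrowest peak of the subunit genes in WT, at 661 bp. Its fold enrichments were 19.1 in 3A, 16.5 in 7A and 32.1 in WT, at places 19.5%, 26.5% and 8.71%. The summits lay 77 bp upstream of the start in 3A, 113 bp upstream in 7A and 9 bp inside the gene in WT (WT peak on chromosome 7, 19708669 to 19709329). No other gene end lay within 2500 bp of the POLR1F, POLR1E or UBTF summits.

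POLR1E and POLR1G encode the partners of the heterodimer and had the strongest peaks of the group in WT. POLR1G had 35.5 in 3A, 43.3 in 7A and 51.7 in WT, at places 4.64%, 3.01% and 2.87%, and was the 1267th, 758th and 994th peak of the lists by fold enrichment. Its summits lay within 7 bp of the gene start in every list (WT peak on chromosome 19, 45404884 to 45407206). ERCC1 and PPP1R13L also have an outer end within 2500 bp of that summit. POLR1E had 27.4 in 3A, 24.9 in 7A and 47.2 in WT, at places 8.93%, 11.5% and 3.56%. In WT a single peak of 2263 bp covered POLR1E from 37485244 to 37487506 on chromosome 9. The mutant lists held a pair of peaks there, of 1082 and 701 bp in 3A and of 872 and 363 bp in 7A. The first of each pair had its summit 20 bp (3A) or 33 bp (7A) outside the outer gene end, against 1 bp inside it in WT, and the other lay 1365 bp (3A) or 1347 bp (7A) inside the gene. In 3A the inner peak had the higher fold enrichment of the pair (27.4 against 21.9 at the gene end), and in 7A the one at the gene end did (24.9 against 14.4). The 3A place of POLR1E (8.93%) is therefore that of the inner peak. The 3A peak at the gene end stood at 14.7%, outside the top 10%.

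UBTF, the factor of the ribosomal DNA, had a pair of peaks in every list. The stronger lay within the gene, 2359 bp past the first listed start (44220882, minus strand) in 3A, 2354 bp in 7A and 2364 bp in WT. It lay 1152 bp (3A), 1147 bp (7A) and 1157 bp (WT) past a second annotated start (44219675). Its fold enrichments were 24.7 in 3A, 17.2 in 7A and 39.0 in WT, at places 11.3%, 24.6% and 5.66%. The width of this peak was 302 bp in 3A and 294 bp in 7A, against 2071 bp in WT (chromosome 17, 44217415 to 44219485), with summits 5 and 10 bp from that of WT. The other peak, 484 bp past the start in 3A, 478 bp in 7A and 466 bp in WT, had 15.0, 7.39 and 21.2, at places 30.8%, 77.2% and 19.0%. That 7A peak was the lowest-placed of all peaks assigned to the group in any list.

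**Figure D1:**
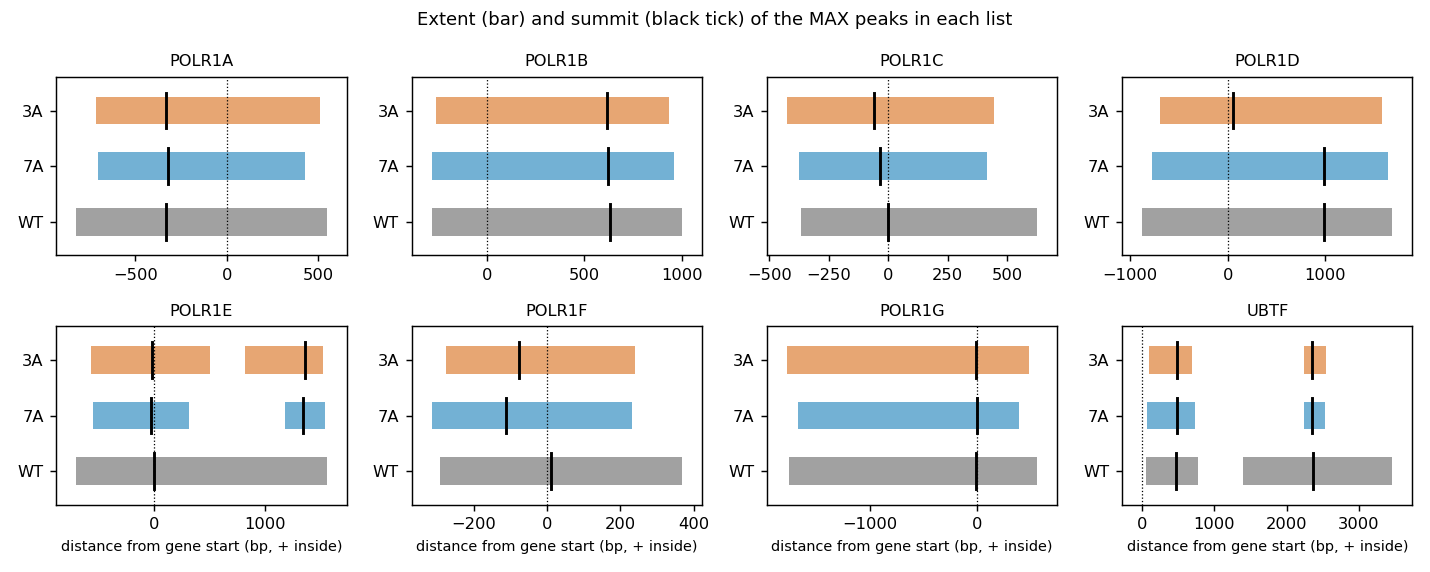
Peaks of the 8 genes in the 3A, 7A and WT lists, as bars from peak start to peak end with a black tick at the summit. The horizontal axis is the distance in bp from the first annotated start (for POLR1E, from the low-coordinate end of the gene), and positive values run into the gene. The single WT peak of POLR1E (2263 bp) stands where each mutant list has a pair, the inner UBTF peak is 302 bp in 3A and 294 bp in 7A against 2071 bp in WT, and the POLR1D summit of 3A is 929 bp from that of WT.

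The promoter letters beneath the summits are shown for the 4 genes whose summits fell inside the RefSeq promoter windows of the 10 genes in WT, and for PTCD3, whose window holds the POLR1A summits. A window runs from 250 bases before an annotated start to 50 bases from it on. Searched for on both strands were the E-box CACGTG, which reads the same on either, and 2 related motifs. The related ones were CACGCG, which reads as CGCGTG on the other strand, and CATGCG, which reads there as CGCATG. No match to one motif overlaps a match to another in the windows shown. Of 34961 promoter windows on chromosomes 1 to 22 and X, 7.27% hold CACGTG, 11.4% CACGCG and 7.04% CATGCG. Matches stand in capitals below, each sequence is written 5′ to 3′ along its gene in GRCh38.p14, and a match says nothing by itself about binding.
POLR1G, chr19:45406394-45406693, plus strand: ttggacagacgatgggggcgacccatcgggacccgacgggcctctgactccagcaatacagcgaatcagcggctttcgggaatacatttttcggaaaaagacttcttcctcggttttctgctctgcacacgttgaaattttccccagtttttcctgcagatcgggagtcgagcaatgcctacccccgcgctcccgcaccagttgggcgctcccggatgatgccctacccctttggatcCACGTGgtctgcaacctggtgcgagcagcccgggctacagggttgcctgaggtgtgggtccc
POLR1C, chr6:43516839-43517138, plus strand: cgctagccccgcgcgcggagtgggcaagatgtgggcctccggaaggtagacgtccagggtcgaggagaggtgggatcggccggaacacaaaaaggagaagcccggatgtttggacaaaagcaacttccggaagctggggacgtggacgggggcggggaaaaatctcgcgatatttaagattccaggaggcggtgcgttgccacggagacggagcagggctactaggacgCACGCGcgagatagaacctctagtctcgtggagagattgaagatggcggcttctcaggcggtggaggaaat
POLR1D, second start, chr13:27621642-27621941, plus strand: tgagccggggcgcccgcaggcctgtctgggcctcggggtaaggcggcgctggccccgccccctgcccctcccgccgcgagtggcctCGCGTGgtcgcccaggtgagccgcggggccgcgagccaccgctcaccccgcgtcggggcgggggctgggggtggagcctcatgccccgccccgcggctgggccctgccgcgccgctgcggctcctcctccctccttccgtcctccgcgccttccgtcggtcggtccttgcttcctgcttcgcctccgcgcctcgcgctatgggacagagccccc
POLR1F, chr7:19708988-19709287, minus strand: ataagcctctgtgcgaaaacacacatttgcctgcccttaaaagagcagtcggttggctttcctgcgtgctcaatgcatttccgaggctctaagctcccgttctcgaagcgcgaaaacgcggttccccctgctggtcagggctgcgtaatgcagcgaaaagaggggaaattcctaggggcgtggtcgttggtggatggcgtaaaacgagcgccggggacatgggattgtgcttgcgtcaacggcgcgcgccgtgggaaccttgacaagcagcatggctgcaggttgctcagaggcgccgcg
PTCD3, chr2:86105985-86106284, plus strand: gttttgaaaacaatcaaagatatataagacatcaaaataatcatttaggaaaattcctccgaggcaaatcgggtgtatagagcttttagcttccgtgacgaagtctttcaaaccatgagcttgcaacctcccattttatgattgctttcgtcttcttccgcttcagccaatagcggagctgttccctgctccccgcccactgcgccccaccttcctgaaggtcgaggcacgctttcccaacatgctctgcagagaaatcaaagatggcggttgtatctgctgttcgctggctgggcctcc

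Of the 9 genes with a window in the table (POLR1E had none), POLR1G alone held CACGTG. That E-box begins 12 bases before the POLR1G start (45406632 to 45406637). The 3A summit lay on its last base, the 7A summit 6 bp and the WT summit 1 bp past it. CACGCG was found in 5 of the 9, POLR1A, POLR1C, POLR1D, RRN3 and UBTF, and CATGCG in none. Of 15812 protein-coding genes with a window, 10.9% held CACGTG in at least 1 of them, 18.1% CACGCG and 10.3% CATGCG. At POLR1D the match in the second window (27621728 to 27621733) was 3 bp from the 7A summit and 4 bp from the WT summit, and 933 bp from the 3A summit. At POLR1C it was 37 bp from the 3A summit and 14 bp from both the 7A and the WT summit. The matches at POLR1A and UBTF lay farther from the nearest summit, at POLR1A 350 bp in 3A, 336 bp in 7A and 346 bp in WT, and at UBTF 494, 488 and 476 bp. The windows of POLR1F and PTCD3 hold none of the 3 motifs. Windows with a summit held CACGTG in 14.5% of cases in 3A, 15.0% in 7A and 15.7% in WT, and CACGCG in 23.3%, 23.6% and 24.8%, over all genes.

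All 8 genes had their strongest peak at a lower place in the 3A list than in the WT list, beside 58.7% of all protein-coding genes with a peak in every list, and all 8 were lower in 7A than in WT, beside 64.2%. The median place of the 8 genes was 13.6% in 3A, 18.2% in 7A and 7.14% in WT. Over all protein-coding genes with a peak in the list it was 29.0%, 31.5% and 25.3%. Of the 13113 protein-coding genes with a peak in all 3 lists, 46.9% had a lower place in both mutant lists, as did all 8 of the group. The direction is therefore common, and more so among strong WT peaks: of genes whose WT place lay between 2.87% and 9.94%, the range of the 8 genes, 62.7% did. The gap to WT, as mutant place minus WT place, had a median of 6.85 percentage points in 3A and 10.1 in 7A among the 8 genes, against 5.04 and 6.41 among genes in that WT range and 2.63 and 4.69 among all genes. In 3A it was smallest for POLR1B (0.12) and largest for POLR1D (37.3), and in 7A smallest for POLR1G (0.142) and largest for POLR1C (33.7). By −log10 q the smallest 3A gap was that of POLR1A (2.24, against 4.85 for POLR1B). The largest 7A gap passed to UBTF by −log10 q (27.9, against 22.1 for POLR1C) and among peaks near gene ends (54.9, against 39.5). In that last ranking the inner UBTF peak, over 2500 bp from any outer gene end, drops out and the peak near the start is ranked. Of the 8 genes 6 stood higher in 3A than in 7A, and POLR1D and POLR1G stood higher in 7A. Over all protein-coding genes with a peak in every list, 7205 of 13113 stood higher in 3A than in 7A. Among genes in the WT range of the 8 genes, 1216 of 2191 did.

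The WT list is longer than the others, and a place in percent depends on the length of its list. With all lists reduced to the 25159 peaks of the shortest, 6 of the 8 genes were lower in both mutant lists, beside 33.2% of all genes. POLR1B then stood higher in 3A than in WT (a gap of -1.75 points) and POLR1G higher in 7A than in WT (-0.938 points), and the other 6 kept their direction. By −log10 q in place of fold enrichment all 8 were again lower in both mutant lists, beside 58.7% of all genes.

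**Figure D2:**
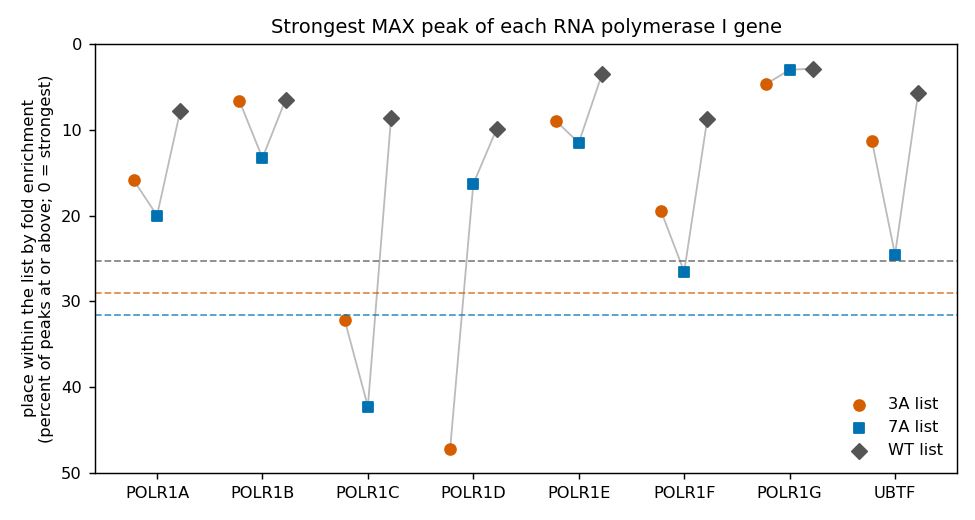
Place of the strongest MAX peak of each gene within the 3A, 7A and WT lists, as the percent of peaks at or above it by fold enrichment, with the strongest peaks at the top. Dashed lines mark the median place over all protein-coding genes with a peak (29.0% in 3A, 31.5% in 7A, 25.3% in WT). All 8 WT points lie within the top 10%, while POLR1C in both mutant lists and POLR1D in 3A lie below the median lines.

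The peaks of the group overlapped between the lists, though not always over most of their length. Every one of the 10 peaks in 3A and the 10 in 7A overlapped a WT peak by at least 1 bp, and each of the 9 WT peaks was overlapped in both mutant lists. All 10 in 3A were also overlapped in 7A, beside 87.8% of all 3A peaks, and all 10 in 7A in 3A, beside 94.3%. Over all peaks 95.4% of 3A and 96.6% of 7A peaks lay on a WT peak, and 74.0% of WT peaks were overlapped in 3A and 69.9% in 7A. When at least 50% of both peaks had to overlap, 7 of the 10 peaks in 3A and 7 of the 10 in 7A matched a WT peak, beside 87.3% and 90.2% of all peaks. The peaks below that mark were both POLR1E peaks and the inner UBTF peak in each mutant list. In each mutant list 8 of the 10 pairs of overlapping peaks had summits within 100 bp of each other, beside 86.1% of all pairs for 3A and 85.3% for 7A. The exceptions were the inner POLR1E peaks, 1364 bp (3A) and 1346 bp (7A) from the WT summit, POLR1D in 3A (929 bp) and POLR1F in 7A (122 bp).

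The widths were smaller in the mutant lists throughout. In each of the 10 pairs the 3A peak was narrower than the WT peak it overlapped, as was the 7A peak, beside 71.1% of all overlapping pairs for 3A and 58.2% for 7A. Pairs at POLR1E count the same WT peak again. The WT peaks of the group were wide, with a median of 1369 bp against 552 bp over the WT list. Pairs with WT peaks of like width or strength were not compared. The median width ratio was 0.845 for 3A and 0.829 for 7A over these pairs, and 0.920 and 0.969 over all pairs. Summed over a gene's peaks, UBTF had 895 bp in 3A, 961 bp in 7A and 2802 bp in WT. POLR1E followed with 1783, 1235 and 2263 bp. POLR1G changed least of the 8 in 3A, with 2267 bp against 2323 bp in WT, and POLR1B least in 7A, with 1238 bp against 1283 bp in WT. The peaks of POLR1D and POLR1G were among the widest 2% of their lists in all 3. Peak width depends on the depth of a library, which the lists do not give, and its part in these widths was not tested.

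**Figure D3:**
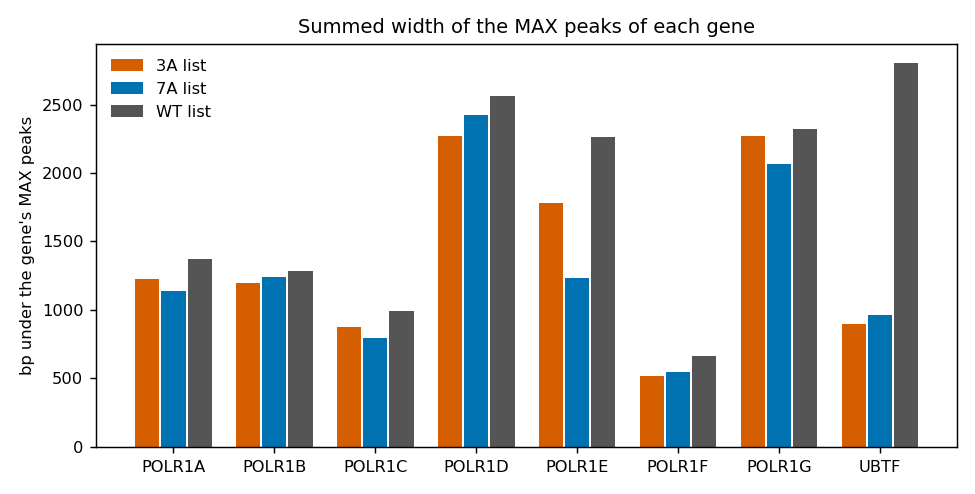
Base pairs under the MAX peaks of each gene, summed over the gene's peaks, in the 3A, 7A and WT lists. The WT bar is the tallest at each of the 8 genes, with the widest gap at UBTF (895 bp in 3A, 961 bp in 7A, 2802 bp in WT).

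RRN3 and POLR1H, which encodes the small subunit for RNA cleavage, had no peak by the rule in any list. Both lie in long stretches without a summit. On chromosome 6 no list held a summit between 28489539 and 33571357, 5.08 Mb that hold 172 protein-coding genes with POLR1H (30060062 to 30064907) among them. On chromosome 16 none held one between 14364704 and 17365354, 3.00 Mb with 24 protein-coding genes and RRN3 (15060022 to 15094335). The median distance between neighbouring summits of the WT list was 29314.5 bp. The RRN3 pseudogenes RRN3P1, RRN3P2 and RRN3P3 on the same chromosome had no peak either. Whether reads of RRN3 can be told from theirs was not tested. Whether MAX was bound at RRN3 or POLR1H was not tested by these lists, and neither gene enters the places and widths above.

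Other genes of the same machinery were set beside the group without a test. The TBP-containing promoter complex SL1 and the termination and release factors (TAF1A, TAF1B, TAF1C, TAF1D, TBP, TTF1 and CAVIN1) all had a peak in every list, at median places of 38.1% in 3A, 42.1% in 7A and 27.4% in WT. TAF1D led them, at 1.26%, 2.06% and 1.10%, and 3 of the 7 were lower in both mutant lists. The 5 subunits shared by all nuclear polymerases, POLR2E, POLR2F, POLR2H, POLR2K and POLR2L, had medians of 31.1% in 3A, 34.9% in 7A and 24.3% in WT, with POLR2L in front in WT (9.19%) and 2 of 5 lower in both. The 11 RNA polymerase III genes had medians of 17.9% in 3A, 14.8% in 7A and 11.8% in WT, led in WT by POLR3D (0.679%), with 7 of 11 lower in both. Of 7 genes of RNA polymerase II, 6 had peaks and POLR2J had none in any list. POLR2J also lay in a stretch without a summit, of 0.372 Mb with 11 protein-coding genes in every list. The medians of the 6 genes were 40.9% in 3A, 33.9% in 7A and 36.4% in WT. POLR2I was in front (0.373% in WT), and 2 of 6 were lower in both mutant lists.

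Nucleolar regulators of ribosomal RNA synthesis had the lowest median place in WT, and so the strongest peaks, of the gene lists. All 8 (TCOF1, NOLC1, DDX21, MYBBP1A, BAZ2A, ERCC6, SIRT7 and NCL) had peaks in every list and all 8 were lower in both mutant lists, at median places of 14.4% in 3A, 22.7% in 7A and 4.22% in WT. NCL, the nucleolin gene, led with 0.469%, 0.771% and 0.0289%. NOLC1, which encodes a nucleolar partner of treacle, had a fold enrichment of 22.01 in 3A, 15.0 in 7A and 94.2 in WT, at places 14.5%, 31.5% and 0.442%. No difference between these gene lists was tested.

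**Figure D4:**
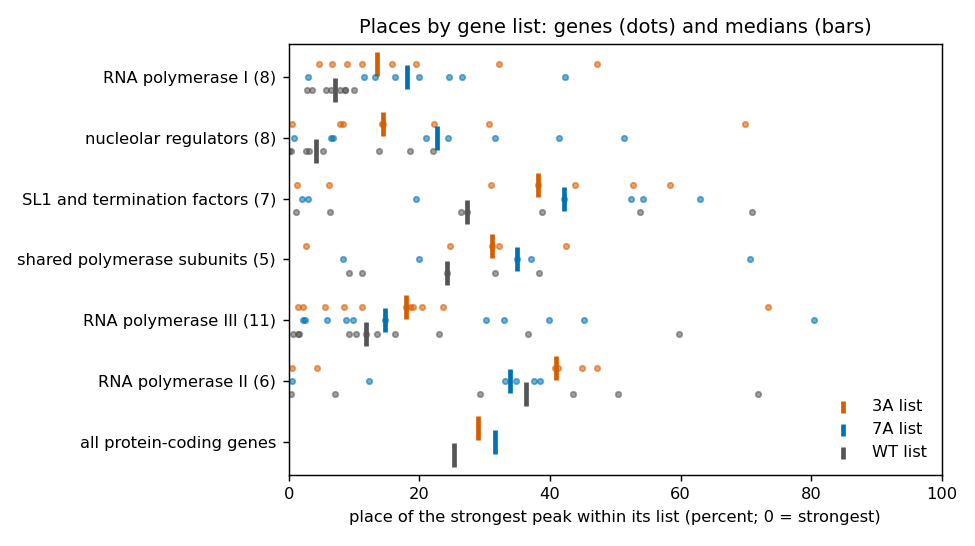
Place of the strongest MAX peak of each gene (dots) and the median of the list (bars) in the 3A, 7A and WT lists, for the polymerase I genes, related gene lists and all protein-coding genes (median only), with the number of genes that had peaks in brackets. The WT places of the polymerase I genes by fold enrichment lie between 2.87% and 9.94%, the tightest range of the lists drawn as dots. By −log10 q their WT range was not the tightest. It ran from 1.23% to 19.9%, against 0.00867% to 18.1% for the nucleolar regulators.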

How the data were processed

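MAX was profiled by chromatin immunoprecipitation with a mouse reference genome added. Per the submitters' processing notes the tools included MACS2, Bowtie2, cutadapt, Picard and SAMtools. The same notes give hg38, mm10 and hg19 as builds, with no role or version. The authors deposited 1 narrowPeak list per MYC form. Pooling of replicates, the control used and the use of the mouse reads are not given in the sources used here. Fold enrichment, as deposited, is a linear ratio at the summit, beside the authors' −log10 p and −log10 q, and the lowest −log10 q was 5.04 in 3A, 5.69 in 7A and 5.15 in WT. Positions were read as hg38 and are counted from 1.

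Places are ranks of fold enrichment within a list, with ties at their mean rank. Backgrounds are protein-coding genes of the RefSeq table under the same rule. Starts, strands and promoter letters come from the RefSeq promoter table, where 9 of the 10 genes had a window. Finding peaks near gene ends, ranks, overlaps of 1 bp and of 50%, and merged regions were checked on artificial peaks with known answers. Widths, summit distances, the motif search and peaks inside gene bodies were not checked in this way. The members and gene lists were chosen with earlier results of these data known. Named are all members with every peak, genes with an outer end within 2500 bp of their summits, the strongest WT member of each related list and members with peaks in some lists only, of which there were none; NOLC1 was added after its values were seen. Alternatives were windows of 1000 bp or gene ends alone, a −log10 q of at least 10, lists of equal length, ranking by −log10 q, among peaks near gene ends or among regions shared by all 3 lists, an overlap of 50% of both peaks, and summits within 100 bp. Ranking among shared regions was chosen after seeing the data. Tables were handled with pandas 2.3.3 and NumPy 2.4.6 in Python 3.11.15, binomial intervals with SciPy 1.17.1 and drawings with matplotlib 3.10.9.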

Additional observations from a re-analysis of the deposited data

How the results depend on the processing

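The counts of genes with a peak (8 in each list) and of overlapping peaks stayed within 1.5 times under every alternative run for them. The median place of the 8 genes moved with the value and peaks ranked. It came to 11.4% in 3A, 13.9% in 7A and 4.69% in WT by −log10 q, 26.03%, 25.5% and 14.5% among peaks near gene ends, 15.6%, 19.5% and 10.4% among regions with a peak in all 3 lists, and 14.7% in 3A and 9.83% in WT with lists of equal length. It was lowest in WT each time. The number of genes in the top 10% was 4 in 3A, 2 in 7A and 6 in WT by −log10 q, 3, 1 and 4 with lists of equal length, 2, 1 and 4 among shared regions and 1, 1 and 2 among peaks near gene ends. The shares of all protein-coding genes were 13.5%, 12.1% and 16.6% by −log10 q and 12.5%, 12% and 12.3% with lists of equal length. They were 11.8%, 11.2% and 11.5% among shared regions and 7.52%, 7.21% and 8.1% among peaks near gene ends. The number of genes lower in both mutant lists was 8 with a window of 1000 bp, with a −log10 q of at least 10 and by −log10 q, and 6 under the other 3. Under these, the 3A minus WT gap of POLR1B was -1.75 (equal length), -1.21 (near gene ends) and -1.84 (shared regions), and the 7A minus WT gap of POLR1G was -0.938, -0.921 and -0.998. The share of all genes was then 33.2%, 39.3% and 34.3%. No replicate lists were analysed, so no replicate could be left out. The lists do not give depth, which limits every comparison of widths and places between them.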

Other observations

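By −log10 q, which rises with coverage as well as with enrichment, POLR1D had the weakest peak of the 8 genes in WT. Its place was 42.0% in 3A, 30.6% in 7A and 19.9% in WT, while POLR1E, which led the group by −log10 q, stood at 3.57%, 4.32% and 1.23%. POLR1B and POLR1C were at 2.89% and 4.27% in WT by this value, above POLR1F at 12.1%.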
